A study of Mus musculus with 3 samples.

Results

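M1 is a type of mitral cell of the mouse olfactory bulb (OB). Its members here were the nuclei that the deposited annotation places in subcluster 5 of the OB projection neurons. There were 686 of them, among 7504 subclustered nuclei and 31703 retained nuclei, with 14 from mouse 1, 465 from mouse 2 and 207 from mouse 3. The deposited annotation gives numbers and no names, and subcluster 5 was called M1 because it held the genes listed for M1 by the study. The nuclei came from 3 adult male C57Bl/6 mice that all received the same treatment, so there was 1 group of 3 animals, with 1 library per animal and no untreated library. Each mouse had been injected at several places in piriform cortex (PCx) and in the anterior olfactory nucleus (AON) with retroAAV-CAG-H2B-GFP, a virus that travels from axon endings to the cell body and there makes a green fluorescent histone. Bulb nuclei carrying the fluorescence were sorted and sequenced by droplet-based single-nucleus RNA sequencing. The sort takes any nucleus with the fluorescence, and the 31703 retained nuclei include many of inhibitory neurons and glia, so the fluorescence alone does not mark a projection to the injected places. The CAG promoter is active in most cell types, and the labels hold no record of which of the injected places an M1 nucleus projected to. M1 was set beside 6 other subclusters, the mitral types M2 (subcluster 1) and M3 (7), the tufted type T1 (0) and the external tufted types ET1 (4), ET2 (6) and ET4 (3).

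Mitral and tufted cells are the glutamatergic output neurons of the OB. They receive odor input from olfactory sensory neurons in the glomeruli, are inhibited there and along their lateral dendrites by GABAergic periglomerular and granule cells, and send axons to the olfactory cortex. Mitral cell bodies form a thin layer, and their axons reach both AON and PCx, whereas tufted cells lie more superficially and project mostly to anterior targets. Molecules that differ between such types include transcription factors that set neuronal identity, ion channels that shape firing, and the guidance receptors and adhesion molecules that steer axons.

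M1 nuclei carried markers of glutamatergic bulb output neurons in all 3 mice. Summed over 10 such genes, the level was 3162, 3375 and 3527 CPM in mice 1, 2 and 3, within or above the range of 1110 to 3449 of the other 18 libraries, and Reln alone gave more than all the other genes of the sum. Here a library is the sum of all nuclei of 1 subcluster in 1 mouse, and CPM are UMIs (distinct RNA molecules counted) per 1e+06 UMIs of the library. Slc17a7, the vesicular glutamate transporter VGLUT1, stood at 248, 215 and 236 CPM, and Cdhr1, a cadherin-related marker of mitral and tufted cells, at 421, 307 and 308 CPM. Reln, which encodes the secreted protein reelin, was at 2104, 2387 and 2555 CPM, above all 18 other libraries, of which the highest reached 2087. A further list of 7 genes, common to several projection neuron types (Fam19a2, Tnfaip8, Zbtb20, Astn2, Shisa6, Gabbr2 and Pip5k1b), summed to 1244, 2272 and 2249 CPM in M1, within the 1018 to 13893 CPM of the other libraries but below every library of T1, ET1, ET2 and ET4. Their median log2 fold change in M1 against the 6 other types was -1.55. By the rule given below, 1 of the 7 was called higher and 0 lower, and without mouse 1 these were 2 and 0. The study gives Fam19a2 and Tnfaip8 as mitral markers and the others as tufted or external tufted markers, so the list is mixed.

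Markers of other cells were also present. The 11 inhibitory neuron markers summed to 402, 829 and 384 CPM in M1, within the 92.3 to 1026 CPM of the other libraries. Most of this came from Meis2 (167, 334 and 83.9 CPM) and Calb2 (99.0, 252 and 227 CPM). In M1, 50%, 72.3% and 39.1% of nuclei held a UMI of Gad1 or Gad2, which make GABA. Within a mouse, ET2 and M3 had a higher marker sum than M1 in mouse 1 and ET2 in mouse 2, whereas in mouse 3 M1 was the highest of the 7 types, with M3 next at 313 CPM. Mouse 2 was the highest of the 3 mice in this share in M1 and in each of the 6 other types, for instance in M2 with 40.7%, 66.3% and 38.5%. The 6 astrocyte markers summed to 223, 173 and 278 CPM (32.3 to 322 in the others), most of it from the glutamate transporter gene Slc1a2 with 217, 144 and 261 CPM, while the defining astrocyte gene Aqp4 stood at 0, 3.47 and 1.39 CPM. Among the other types only ET2 reached such sums (265 to 322 CPM), and M2, M3, T1, ET1 and ET4 stayed at or below 113 CPM. Of the 5 immature neuron markers the sum was 235, 297 and 268 CPM against 144 to 275 CPM, so that mouse 2 lay above all the others. The 5 microglial markers summed to 37.1, 42.4 and 45 CPM against 33.6 to 62.5 CPM, with P2ry12 at 6.19, 27.1 and 26.7 CPM, Cx3cr1 at 30.9, 12.5 and 16.1 CPM and Tmem119 at 0 UMIs. The part of these other cells in the results was not tested.

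Mouse 1 stood apart. Its 14 nuclei yielded 161593 UMIs, against 8347893 in mouse 2 and 5019472 in mouse 3, with a median of 11248, 16703 and 24408 UMIs per nucleus. A gene needs 3 UMIs, or 18.6 CPM, to rise above the counting floor in mouse 1, whereas the floor was 0.36 CPM in mouse 2 and 0.60 CPM in mouse 3. The 14 genes of the study's M1 list summed to 1906, 8683 and 8884 CPM, all above the 26.6 to 796 CPM of the other libraries, but mouse 1 was far below the other mice. Nucleus by nucleus, the list took a median of 702 CPM of the nucleus in mouse 1, 8285 in mouse 2 and 8733 in mouse 3. Of the 14 nuclei, 12 lay below the 5th percentile of mouse 2 (3809) and of mouse 3 (3941), and the other 2 stood at 4852 and 9591. A single nucleus held 150 of the 308 M1-list UMIs of mouse 1, or 48.7%. The same nuclei averaged 1094 CPM for the M2 list and 950 for the M3 list, against 443 and 373 in mouse 2 and 579 and 239 in mouse 3. The study drew this list from the same nuclei, so its level describes the label M1 and does not check it independently. Of barcodes, 39, 8 and 35 were shared between mice 1 and 2, 1 and 3, and 2 and 3 over all retained nuclei, and 0 in M1.

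**Figure D1:**
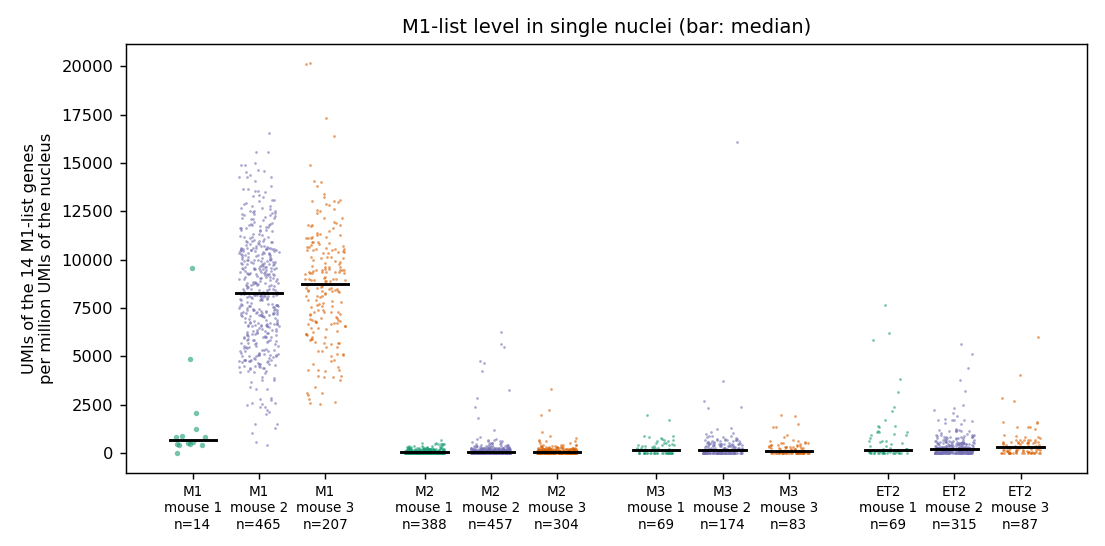
Summed level of the 14 M1-list genes in CPM of the nucleus (vertical axis) for each nucleus of M1, M2, M3 and ET2 by mouse, with bars at the medians. M1 nuclei of mice 2 and 3 center on 8285 and 8733 CPM, 12 of the 14 nuclei of mouse 1 lie below their 5th percentiles, and the medians of the other types lie near 0.

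The share of M1 differed widely between mice. M1 made up 14 of 1559 subclustered nuclei in mouse 1, or 0.90% (exact Clopper-Pearson 95% interval 0.49 to 1.5), 465 of 4359 or 10.7% (9.77 to 11.6) in mouse 2, and 207 of 1586 or 13.1% (11.4 to 14.8) in mouse 3. The mean was 8.21% ± 6.44 (SD, n = 3). Among the 3 mitral types alone, M1 accounted for 2.97%, 42.4% and 34.8%. The share of mouse 1, and every call from 3 mice, rests on the deposited label of those 14 nuclei, while 3 nuclei of mouse 1 outside subcluster 5 also held at least 4000 CPM of the M1 list. These 3 were ET2 nuclei. Among the compared types, mouse 2 had 6 such nuclei in M2, 1 in M3 and 3 in ET2, and mouse 3 had 2 in ET2. The intervals cover counting error only, and that of mouse 1 did not reach those of the others. All 14 M1 nuclei of mouse 1, 459 of mouse 2 and 205 of mouse 3 came from cluster 13 of the first clustering. Placement of the virus and sorting yield per animal are not recorded in the labels, and their part in the low share of mouse 1 was not tested.

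**Figure D2:**
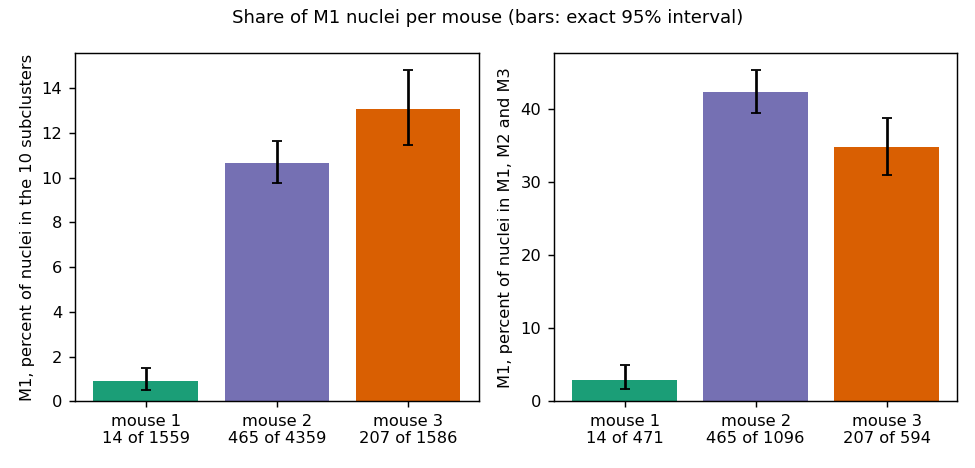
M1 nuclei as a percent of all subclustered nuclei (left) and of the M1, M2 and M3 nuclei together (right) in each mouse, with exact 95% binomial intervals as bars. Mouse 1 lies at 0.90% and 2.97%, below the intervals of mice 2 and 3 in both panels.

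To describe the M1 transcriptome, counts were summed per mouse and subcluster, and M1 was set against the mean of the 6 other types. A gene is called higher where the log2 fold change exceeded 1 and all 3 M1 libraries lay above all 18 others in CPM, and lower in the mirror case. Because the subclusters had been formed on these same counts, fold changes are given as descriptions with standard errors (SE), and no p-values are given. The SE come from a fit in which all 21 libraries share the estimate of spread. They do not measure the spread of the 3 M1 libraries, which can be much wider. Of 14696 genes, 162 (1.1%) were higher and 70 (0.476%) lower in M1. Without mouse 1, 589 (3.78%) of 15575 were higher and 211 (1.35%) lower, which included 158 of the 162 and 66 of the 70. In nuclei with no Gad1 or Gad2 UMI, of which M1 of mouse 1 had 7, 113 of 12168 genes were higher and 72 lower. Of the 162, 129 entered this fit and 81 were called, and of the 70, 68 entered and 32 were called. This setting was added after the data were seen. The M1-list genes Gabra2, Nrp2, Kcng1 and Adgrl2 then had log2 fold changes of 5.83, 5.34, 5.45 and 5.92 but were not called, since M1 of mouse 1 overlapped other libraries. AC129186.1, Reln, Cntn1, Ptprz1 and Cobl among the higher genes, and Asb11, Zfp521, Carns1, Scin, 4930445B16Rik, Cplx1 and Cux2 among the lower, were not called there either, and Doc2b, Olfr1259, Tslp and Gm30382 did not pass its filter on low counts. The fitted log2 fold change there was 6.76 for AC129186.1, -5.18 for Asb11, -3.66 for Zfp521, -2.91 for Carns1, -4.30 for Scin and -2.82 for 4930445B16Rik. The profile of M1 across the 14696 genes was most like that of M2, with a correlation of log CPM across genes of 0.81, 0.93 and 0.92 in mice 1, 2 and 3, and least like that of ET4 (0.74, 0.86 and 0.82). Genes are not independent replicates. Mouse 1, with the lower values, had both fewer UMIs and a lower M1-list level, and the part of either was not tested.

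Of the 14 genes on the M1 list, which the study had drawn from these nuclei, 10 were higher and 0 lower, and 12 were higher without mouse 1. The median log2 fold change of the list was 5.20, and that of all tested genes was -0.02. As a log2 ratio of mean CPM, in which a high single type weighs more, the median of the list was 4.25. Coordinates below are those of GENCODE M21 on GRCm38.

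The list holds a pair of transcription factor genes. Ebf1 (chr11:44617317-45008091, + strand), a helix-loop-helix factor of olfactory sensory and B cell development, had 761, 2322 and 2437 CPM in M1 of mice 1, 2 and 3. The other libraries ran from 1.05 to 602 CPM, so none overlapped M1, and the log2 fold change was 6.90 ± 0.39 (SE). The type nearest to M1 was ET2, with 602, 191 and 435 CPM. Other Ebf genes did not follow Ebf1: Ebf2 stood at 0, 0.958 and 0.797 CPM and Ebf3 at 0, 0.12 and 0.996 CPM in M1, against 101 to 176 CPM and 323 to 406 CPM in ET2. Lhx5 (chr5:120431699-120441223, + strand), a LIM homeodomain factor, had 6.19, 22.6 and 20.9 CPM in M1 and 20.8, 23.5 and 23.3 CPM in ET2. M1 and ET2 overlapped, and Lhx5 was not called, whereas the other 5 types stayed at or below 3.63 CPM. Against the sum of the 6 types it was called, with a log2 fold change of 3.65. Gm27199, an antisense transcript that starts beside Lhx5 on the opposite strand, ran in the same types, with 24.8, 43.2 and 35.9 CPM in M1 and 53.2, 36.4 and 33.2 CPM in ET2.

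The list also holds 4 genes of axon guidance and adhesion. Cntn6 (chr6:104492790-104863406, + strand), a contactin of the immunoglobulin superfamily, had 377, 3458 and 3285 CPM in M1 against at most 73.3 CPM elsewhere (log2 fold change 6.72 ± 0.31). Nrp2 (chr1:62703285-62818695, + strand), a co-receptor for class 3 semaphorins, had 384, 679 and 760 CPM against at most 136 CPM (5.23 ± 0.17). M3 was the next highest type for Nrp2, with a mean of 120 CPM. Adgrl2 (latrophilin-2), an adhesion G protein-coupled receptor at synapses, had 18.6, 51.5 and 67.7 CPM against at most 16.8 CPM (5.13 ± 0.31), so that mouse 1 lay just above the highest of the others. Dsc2, a desmosomal cadherin, had 0, 20.6 and 20.3 CPM against at most 3.63 CPM and was called only without mouse 1, where 0 UMIs allowed up to 18.6 CPM.

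Channel and receptor genes formed another group. Kcng1 (chr2:168260117-168281736, - strand) encodes a silent potassium channel subunit that acts only together with Kv2 channels. It had 37.1, 75.9 and 85.1 CPM in M1 against at most 32.7 CPM elsewhere (log2 fold change 5.17 ± 0.23), with M3 next at a mean of 27.2 CPM. The Kv2 gene Kcnb2 was not called, at 223, 567 and 255 CPM in M1, and was highest in ET2 at 2483 to 2748 CPM. Gabra2 (chr5:70957597-71095849, - strand), the alpha-2 subunit of the GABA-A receptor, had 155, 1760 and 1927 CPM against at most 106 CPM (5.40 ± 0.33). Gabra2 is also a gene of inhibitory neurons, and the part of such RNA in its level in M1 was not tested. Chrna5, the alpha-5 subunit of nicotinic acetylcholine receptors, had 12.4, 17.1 and 12.2 CPM against at most 3.63 CPM (4.93 ± 0.44). In mouse 1 this was 2 UMIs, under the floor of 18.6 CPM, so the call rests on mice 2 and 3.

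The rest of the list comprised genes of vesicle release and synapse organization and others of less known role. Doc2b (chr11:75768966-75796049, - strand), a calcium sensor of spontaneous and asynchronous vesicle release, had 24.8, 109 and 106 CPM against at most 5.45 CPM (7.19 ± 0.34), the value of mouse 1 coming from a single nucleus. C1ql1, a secreted synapse organizer of the C1q family, had 0, 59.1 and 60 CPM against at most 4.83 CPM and was called only without mouse 1. Baiap3, a Munc13-related gene of dense-core vesicle traffic, had 49.5, 13.1 and 9.36 CPM and overlapped M3 (mean 16.7 CPM), and it was called neither with nor without mouse 1 but was called against the sum of the 6 types (3.94). Sertm1 (chr3:54897068-54915887, - strand), a small transmembrane protein, had 61.9, 72.0 and 72.9 CPM against at most 16.1 CPM (4.58 ± 0.20) and was the list gene most even over the 3 mice. Olfr1259 (chr2:89940532-89948664, - strand), an odorant receptor gene, had the largest fitted log2 fold change of all called genes, 8.19 ± 0.47. It had 0 UMIs in M3, so this fitted value and its rank are no measure of the fold. Without mouse 2 (8.12) its fitted value was exceeded by those of Doc2b (8.96), Gm30382 (8.70) and AC129186.1 (8.25), and against the sum of the 6 types (7.09) by Doc2b (7.32) and AC129186.1 (7.16). Without mouse 2, Doc2b had 0 UMIs in ET2 and in ET4, so its fitted fold is no measure there. The level of Olfr1259 was 18.6, 23.8 and 19.5 CPM against at most 1.41 CPM, and the 3 UMIs of mouse 1 came from a single nucleus.

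**Figure D3:**
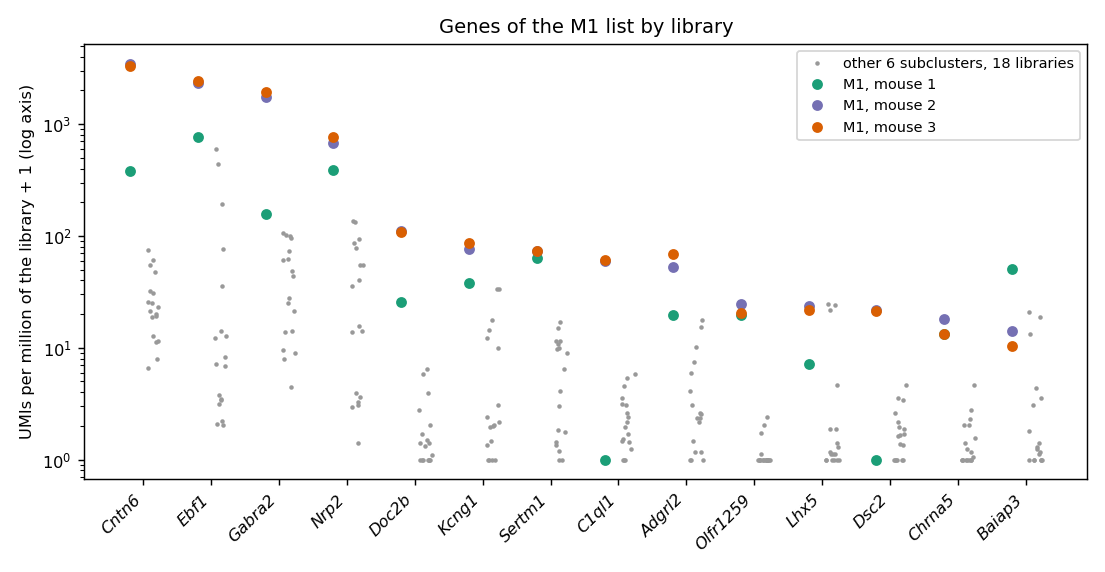
Level of each M1-list gene on a log axis (CPM plus 1) in M1 of mice 1, 2 and 3 (colored points) and in the 18 libraries of the other types (small grey points). For Cntn6, Ebf1, Gabra2 and Doc2b all M1 points lie above all grey points, while Lhx5 and Baiap3 overlap other types and C1ql1 and Dsc2 are at 0 in mouse 1.

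Outside the list, 6 genes were among the 15 with the largest log2 fold changes. AC129186.1, a long noncoding RNA gene, had 18.6, 177 and 187 CPM in M1 against at most 8.06 CPM elsewhere (7.06 ± 0.29). Tslp, a cytokine gene known from epithelia, had 24.8, 10.3 and 20.5 CPM against at most 2.22 CPM (7.07 ± 0.59). It had 0 UMIs in M3, so this fitted value is no measure of the fold. Against the sum of the 6 types the log2 fold change of Tslp was 4.65. Rmst, a noncoding RNA of neurogenesis, went against the usual pattern of the mice, with 384 CPM in mouse 1 and 85.1 and 112 CPM in mice 2 and 3, all above the 27.4 CPM of the highest other library (5.44 ± 0.36). Cpa6, a secreted carboxypeptidase, had 285, 1882 and 1941 CPM against at most 225 CPM (5.39 ± 0.25). Col23a1, a membrane-bound collagen, had 99.0, 494 and 516 CPM against at most 75.7 CPM (4.94 ± 0.20). The remaining gene, the noncoding Gm30382, reached 18.6, 34.6 and 47.4 CPM against at most 1.77 CPM (6.68 ± 0.35). Of 49 named genes that were called, 9 moved by more than 1.5-fold without mouse 2. These were Gm30382 (8.70), Rmst (7.19), AC129186.1 (8.25), Ebf1 (7.51), Kcng1 (6.08), Chrna5 (6.16) and Doc2b among the higher genes and, among the lower genes below, Scin (-4.44) and Asb11, which then had 0 UMIs in M1, and all 9 moved away from 0. Without mouse 2, Kcng1 had 0 UMIs in ET1, and Doc2b had 0 in ET2 and in ET4. Their larger fitted values are therefore no measure of a changed fold. Without mouse 1 the number of genes that moved was 0, and without mouse 3 it was 1, Asb11 (-3.82). The calls had required mouse 1, and it held 161593 M1 UMIs against 8347893 and 5019472 in mice 2 and 3. The count of 0 therefore does not show that mouse 1 was like the others. Against the sum of the 6 types, in which the larger subclusters weigh more, 10 of the 49 moved toward 0 by more than 1.5-fold. Besides Olfr1259 and Tslp these were Kcng1 (4.10), Nrp2 (4.54), Ebf1 (6.01), Chrna3 (2.84), Thrb (3.36), Cobl (2.15), Zp3r (2.95) and Reln, which at 0.48 was no longer called. A further 5 moved away from 0, namely Nrp1, Asb11, Sema5b (-4.36), Carns1 (-3.68) and Scin (-3.56).

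The called gene with the lowest log2 fold change was Nrp1, the other neuropilin. It stood at 43.3, 8.03 and 5.78 CPM in M1 and between 97.4 and 541 CPM in the 18 other libraries. The log2 fold change was -4.80 ± 0.24. M1 thus had more Nrp2 and less Nrp1 than each of the other types, with no overlap of libraries for either gene. Sema5b, a transmembrane semaphorin, was at 6.19, 10.5 and 8.37 CPM against 21.6 to 404 CPM (-3.40 ± 0.25). Kctd8, an auxiliary subunit of GABA-B receptors, was at 24.8, 18.9 and 11 CPM against 30.7 to 428 CPM (-2.98 ± 0.31). Zfp521, a zinc finger factor, was at 6.19, 2.04 and 2.79 CPM against 8.06 to 111 CPM (-3.6 ± 0.34). In mouse 1 this was 1 UMI, under the floor of 18.6 CPM, so the call rests on mice 2 and 3.

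The other 6 of the 10 lowest genes were at 0 in mouse 1, where 0 UMIs allow up to 18.6 CPM, so their calls rest on mice 2 and 3. Asb11, a substrate adaptor for ubiquitin ligases, was at 1.44 and 0 CPM in mice 2 and 3 against 2.32 to 72.2 CPM (-4.50 ± 0.39). Against the sum of the 6 types its log2 fold change was below that of Nrp1 (-5.62 against -5.55), and without mouse 2 M1 had 0 UMIs of it, so that its fitted fold is no measure there. Drd1, the dopamine D1 receptor, was at 0.60 and 0.80 CPM against 1.79 to 16.3 CPM (-3.20 ± 0.42), and in nuclei without a Gad1 or Gad2 UMI the fitted value was -6.85, where M1 had 0 UMIs of it and the fit is no measure. Tmem121b, Carns1 (carnosine synthase), Scin (an actin-severing protein) and 4930445B16Rik had log2 fold changes of -3.01, -3.0, -2.94 and -2.84 and stayed at or below 2.59 CPM in M1.

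Gene families were then described as wholes, each against the 1.1% of genes that were higher and the 0.476% that were lower among all tested, or 3.78% and 1.35% where mouse 1 is left out. Counts of this size are small, and no family was tested. The lists were assembled by known function with earlier results of these data in view, and several hold genes of the M1 list, such as Gabra2, Chrna5, Cntn6, Nrp2, Kcng1 and Doc2b, so their counts are in part fixed by that choice.

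Among 12 GABA-A receptor subunit genes tested, 2 were higher and 0 lower. Gabrb1, the beta-1 subunit, was the second beside Gabra2, at 3038, 5438 and 5752 CPM against at most 2386 CPM (log2 fold change 3.74 ± 0.14), with M3 next at a mean of 2077 CPM. Gabra4 was called only without mouse 1, at 111, 211 and 249 CPM. Of 5 tested genes for GABA-B receptors and their KCTD partners, Kctd8 was lower, and Kctd16 was lower only without mouse 1, at 0, 20.6 and 15.5 CPM.

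Of 9 acetylcholine receptor genes tested, 2 were higher and 0 lower. Besides Chrna5 this was Chrna3, the alpha-3 subunit, which stood at 37.1, 46.5 and 39.6 CPM against at most 21.8 CPM (3.83 ± 0.21), highest outside M1 in M3 with a mean of 16.6 CPM. Chrna5 (chr9:54980880-55007779), Chrna3 (chr9:55010111-55026562) and Chrnb4 (chr9:55028154-55048779) lie side by side in the genome. Chrnb4 was called only without mouse 1, with 0, 10.5 and 12 CPM against at most 8.06 CPM. The muscarinic receptor gene Chrm3 behaved likewise, with 0, 167 and 143 CPM against at most 101 CPM.

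Of 14 monoamine receptor genes tested, 2 were lower and 0 higher. Besides Drd1, Adrb1, the beta-1 adrenergic receptor, was at 0, 2.76 and 1.79 CPM against 4.2 to 59.9 CPM (-2.81 ± 0.27), a call that rests on mice 2 and 3, since 0 UMIs allow up to 18.6 CPM in mouse 1. Without mouse 1, the serotonin receptor Htr2a (43.3, 3.95 and 2.59 CPM against 5.13 to 82.9 CPM) and the histamine receptor Hrh2 (18.6, 1.92 and 1.39 CPM against 3.22 to 68.2 CPM) were lower too, and the serotonin receptor Htr2c (0, 75.1 and 67.7 CPM against at most 27.9 CPM) was higher.

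Of 24 sodium and calcium channel genes tested, 2 were higher and 1 lower, and without mouse 1 these were 5 and 2. Cacna1e, the pore of R-type calcium channels, had 947, 1159 and 1141 CPM against at most 770 CPM (2.77 ± 0.14), and M3 was next with a mean of 725 CPM. Cacna1b, the pore of N-type calcium channels, had 291, 276 and 328 CPM against at most 233 CPM (1.04 ± 0.10). Both differed little between the mice, and Cacna1b fell just under the threshold without mouse 3 (0.93).

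Potassium channels other than the Kv2 group had no called gene among 27 voltage-gated and 25 further genes. Without mouse 1, Kcnj3, a G protein-gated inward rectifier, was lower (198, 107 and 43.8 CPM against 111 to 1645 CPM), as was Kcna2 (155, 64.8 and 63.6 CPM against 78.9 to 340 CPM). Kcnq3, an M-current subunit, was higher without mouse 1 (600, 792 and 711 CPM against at most 707 CPM). In the 17 ionotropic and 7 metabotropic glutamate receptor genes none was called, and without mouse 1 Gria2 and Grm3 were higher.

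The contactin, CASPR and L1 group had 6 higher genes of 19 tested and 0 lower. Besides Cntn6 they were Cntn1 (532, 542 and 575 CPM against at most 522; log2 fold change 1.05 ± 0.09), Cntnap5a (959, 1135 and 1364 against at most 795; 1.93 ± 0.12) and Cntnap5b (303, 260 and 311 against at most 208; 2.35 ± 0.10). The receptor tyrosine phosphatase genes Ptprg (582, 534 and 515 CPM against at most 433 CPM; 1.30 ± 0.10) and Ptprz1 (24.8, 20 and 20.9 CPM against at most 18.9 CPM; 1.29 ± 0.24), whose products bind contactins, completed the group. Contactins are membrane-anchored adhesion molecules without a cytoplasmic part, and CASPR proteins are among their partners. Cntn5 was higher only without mouse 1 (2302, 3308 and 3331 CPM against at most 2913 CPM), and Cntn4 was not called. Cntn1 fell just under the threshold without mouse 3 (0.92).

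Of 26 semaphorin, plexin and neuropilin genes tested, Nrp2 was higher, and Nrp1 and Sema5b were lower. Without mouse 1, the semaphorins Sema3e (254, 276 and 284 CPM) and Sema5a (297, 422 and 456 CPM) and the receptor Plxna1 (12.4, 43.4 and 42.6 CPM) were higher, and Plxna2 (124, 20.5 and 14.5 CPM against 88.0 to 408 CPM) and Sema7a (12.4, 2.16 and 0.80 CPM against 2.82 to 68.5 CPM) were lower. In mice 2 and 3, the neuropilin genes and the plexin genes Plxna1 and Plxna2 thus each held a member that was higher and a member that was lower than in all other types. In 31 genes of the Slit-Robo, netrin and ephrin systems none was called. Slit2 (0, 15.5 and 14.1 CPM against at most 5.79 CPM) and Epha6 (619, 1166 and 1274 CPM against at most 848 CPM) were among 3 that were higher without mouse 1.

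Of 44 T-box, homeobox and zinc finger factor genes tested, 2 were higher and 2 lower. Foxp2, a forkhead repressor, had 384, 293 and 262 CPM against at most 87.0 CPM (3.89 ± 0.14). Tshz3, a zinc finger homeobox factor, had 105, 199 and 254 CPM against at most 34.4 CPM (3.6 ± 0.15). Cux2, a cut homeobox factor, was lower at 149, 88.4 and 84.5 CPM against 192 to 835 CPM (-2.01 ± 0.13), and Bcl11a, a zinc finger factor, at 149, 107 and 87.3 CPM against 169 to 358 CPM (-1.30 ± 0.11). Tbx21, a T-box factor of mitral and tufted cells, had 24.8, 104 and 98.0 CPM in M1 and was called higher only without mouse 1, since M2 reached a mean of 86.9 CPM. Tbr1 was called lower only without mouse 1, at 18.6, 5.51 and 3.39 CPM against 6.91 to 86.8 CPM.

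Among 20 nuclear receptor genes, Thrb, the thyroid hormone receptor beta, was higher at 136, 178 and 249 CPM against at most 50.6 CPM (4.00 ± 0.18). Rorb, a marker on the ET1 list, showed how far mouse 1 differed from the other mice, with 297 CPM there and 6.59 and 4.78 CPM in mice 2 and 3. ET1 had 290, 217 and 235 CPM, so M1 of mouse 1 was at the ET1 level and M1 of mice 2 and 3 below all 18 libraries of the other types (14.5 to 290 CPM). Of 38 vesicle priming and calcium sensor genes, Doc2b was higher, and Cplx1 (complexin 1) was lower at 30.9, 25.5 and 13.9 CPM against 36.7 to 171 CPM (-1.87 ± 0.18). Of 19 cadherin and desmosomal genes, Cdh7 was higher at 24.8, 29.1 and 27.3 CPM against at most 24.7 CPM (2.51 ± 0.16). Mouse 1 thus lay barely above the highest of the others, and the call rests on that margin. Among 23 neuropeptide and 15 activity-induced genes none was called.

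**Figure D4:**
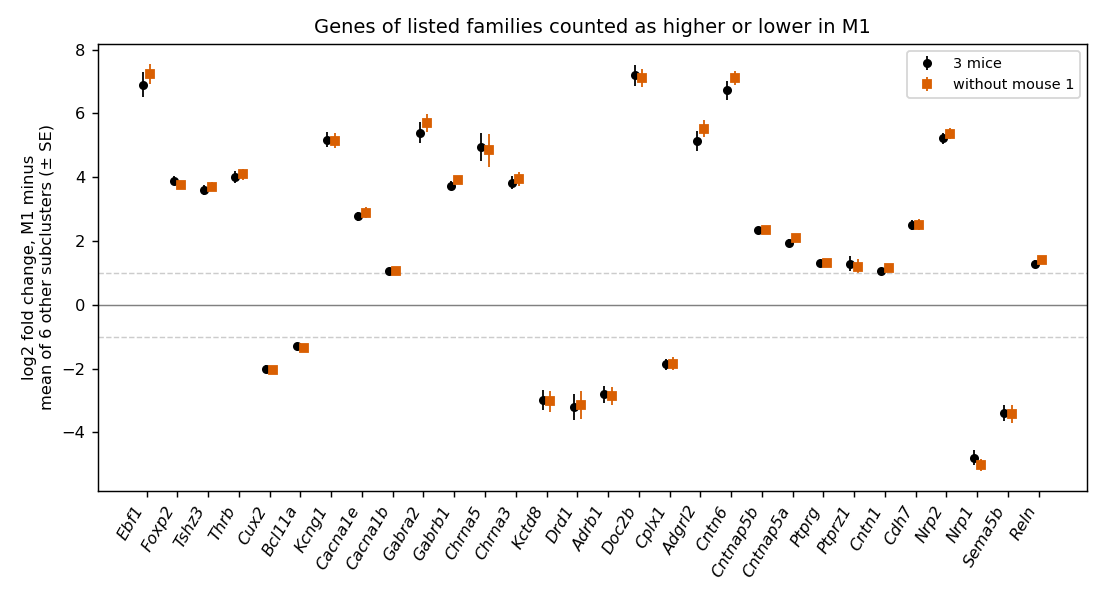
Log2 fold change of M1 against the mean of the 6 other types with standard error bars, for named genes of the functional lists called higher or lower, from 3 mice (circles) and without mouse 1 (squares). Values with and without mouse 1 lie close together, from 7.19 for Doc2b to -4.80 for Nrp1. The calls required mouse 1, which held 161593 M1 UMIs against 8347893 and 5019472 in mice 2 and 3. The closeness therefore does not show that mouse 1 was like the others.

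Promoters of the higher genes were searched for TAATTA, the palindromic core bound by many homeodomain proteins such as LIM factors, and for CCCNNGGG, the core bound by Ebf proteins. The window ran from 250 bases before to 50 bases after the annotated start in RefSeq (GRCm38.p6) and both strands were read. Of the 162 higher genes, 114 matched a promoter entry. TAATTA occurred in 10 of them (8.77%), in 414 of the 10765 promoters of tested genes (3.85%) and in 1 of 45 promoters of lower genes (2.22%). CCCNNGGG occurred in 25 of the 114 (21.9%) and in 20.9% of the tested promoters. A match is a description of the sequence and not a bound site. The 3 promoters below show where the TAATTA letters, in capitals, lie in genes of adhesion or neuronal shape that were higher in M1, chosen after their values were seen. Each is written 5′ to 3′ on the strand of the gene.
Cdh7 (chr1:109983473-109983772, + strand): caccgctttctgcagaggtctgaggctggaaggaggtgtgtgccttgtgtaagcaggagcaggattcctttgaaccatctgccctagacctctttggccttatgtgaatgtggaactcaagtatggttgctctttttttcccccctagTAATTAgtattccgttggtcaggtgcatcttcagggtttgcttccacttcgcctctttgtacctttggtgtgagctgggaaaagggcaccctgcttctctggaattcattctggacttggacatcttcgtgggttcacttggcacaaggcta
Cobl (chr11:12412091-12412390, - strand): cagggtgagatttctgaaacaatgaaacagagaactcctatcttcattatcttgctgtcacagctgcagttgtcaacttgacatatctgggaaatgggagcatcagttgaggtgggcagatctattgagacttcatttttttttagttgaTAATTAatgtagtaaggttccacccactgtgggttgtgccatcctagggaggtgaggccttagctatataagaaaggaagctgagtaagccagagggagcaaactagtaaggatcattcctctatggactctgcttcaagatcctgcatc
Lingo2 (chr4:35845155-35845454, - strand): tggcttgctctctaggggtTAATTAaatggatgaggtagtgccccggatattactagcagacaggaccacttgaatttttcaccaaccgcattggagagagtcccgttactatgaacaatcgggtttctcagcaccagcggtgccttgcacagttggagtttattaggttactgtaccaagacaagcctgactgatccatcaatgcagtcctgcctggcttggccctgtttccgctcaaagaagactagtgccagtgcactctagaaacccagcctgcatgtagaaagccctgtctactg
The letters start 102, 100 and 231 bases before the start of Cdh7, Cobl and Lingo2. Cobl, an actin nucleator, had 173, 249 and 275 CPM in M1 against at most 146 CPM (3.61 ± 0.12). Lingo2, a leucine-rich repeat membrane protein of neurons, had 928, 2215 and 2574 CPM against at most 447 CPM (4.70 ± 0.21).

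M1 was also set against the other mitral types, M2 and M3, and against ET2, which shared Lhx5 and Ebf1 with it. More genes were called against each than against all 6 types together, and 3 libraries had to be cleared in place of 18. Against M2, 684 (4.65%) were higher and 832 (5.66%) lower in M1. Against M3 these were 656 (4.46%) and 907 (6.17%), and against ET2, 852 (5.8%) and 896 (6.1%). Without mouse 1, of 15575 genes, 1464 (9.4%) were higher and 1150 (7.38%) lower than in M2, 1964 (12.6%) and 1339 (8.6%) than in M3, and 1749 (11.2%) and 1224 (7.86%) than in ET2. In all 3 contrasts together, 123 genes were higher and 65 lower. The contrasts share the M1 libraries.

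Against M2, the genes highest in M1 were Ebf1 (log2 fold change 6.76 ± 0.76), Gm27199 (6.72 ± 0.54) and AC129186.1 (6.31 ± 0.46). In M2, Ebf1 stood at 1.07, 34.7 and 11.8 CPM, and mouse 2 was the highest. Slc17a6, the vesicular glutamate transporter VGLUT2, was higher in M1 with 68.1, 87.0 and 90.4 CPM against 9.06, 12.5 and 14.5 CPM (2.74 ± 0.18), whereas Slc17a7 was not called (-0.51 ± 0.19). Nrp1 was lower by the widest fitted fold among genes with UMIs in every M1 library, at 400, 411 and 430 CPM in M2 (-5.81 ± 0.26). Smpx, a small muscle protein gene of the M2 list, had 1 UMI in M1 and 205 in M2. Dmrtb1, a DM-domain factor, had 0 UMIs in M1 and was at least 6.75-fold lower than in M2, taking 3 UMIs over all M1 nuclei as the floor. Of the M2 list, the mechanically gated channel gene Piezo2 (18.6, 4.31 and 2.99 CPM against 63.5, 70.2 and 88.7 CPM; -4.29 ± 0.41) was lower in M1.

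Against M3, the genes with the largest fitted folds had 0 UMIs in M3, so that only bounds can be given. Olfr1259 was at least 17.0-fold higher in M1, Tslp at least 11-fold and the ribonuclease-like gene Zc3h12d at least 8.63-fold, with a floor of 3 UMIs over all M3 nuclei (1.30 CPM). M3 held 326 nuclei with medians of 4402 to 6866 UMIs, fewer than M1. Vmn1r200, a vomeronasal receptor gene, had 2 UMIs in M1 and 56 in M3, and Dmrtb1 was at least 11.7-fold lower in M1. Gm47033, a gene of no known role, had 5 UMIs in M1 and 68 in M3 (-5.98 ± 0.55). Nts, the precursor of neurotensin, was lower in M1 than in M3 at 12.4, 1.44 and 0.40 CPM against 50.8, 46.8 and 20.9 CPM (-4.79 ± 0.59), and Calca, the precursor of calcitonin gene-related peptide, at 6.19, 1.32 and 0.60 CPM against 69.0, 41.5 and 30.6 CPM (-5.13 ± 0.58). Cck, the precursor of cholecystokinin, was also lower, at 149, 181 and 114 CPM against 966, 704 and 654 CPM (-2.20 ± 0.24).

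ET2 was the other type with Ebf1 and Lhx5. Against it, Fam19a3, a secreted chemokine-like protein gene, was at least 40.7-fold higher in M1, Zp3r at least 9.56-fold and Gm5148 at least 10.2-fold, all with 0 UMIs in ET2. Robo1, the receptor of Slit repellents, had 2853, 1908 and 2738 CPM in M1 and 45.1, 97.3 and 47.3 CPM in ET2 (log2 fold change 5.22 ± 0.29). The LIM factor Lhx1 had 1 UMI in M1 and 561 in ET2, the vasoactive peptide gene Edn1 had 2 and 804, and Ebf3 had 6 and 2167 (-9.52 ± 0.58). M1 and ET2 therefore shared Lhx5 at like levels, with a difference of -0.05 ± 0.36 on the log2 scale, and Ebf1 at unlike levels (2.32 ± 0.61), while Lhx1, Ebf2 and Ebf3 were found in ET2 and hardly in M1.

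The pattern was next followed in single nuclei, each thinned at random to 4000 UMIs so that depth did not set the shares. This left out 0, 7 and 8 M1 nuclei of mice 1, 2 and 3. Cntn6 was found in 42.9%, 97.6% and 99.0% of M1 nuclei, against 3.2%, 8.1% and 5.3% of M2 nuclei and 11.8%, 29.5% and 12% of M3 nuclei. In the 17 clusters outside the subclustering it was found in 14.2%, 10.9% and 11.7% of nuclei. Each of these clusters had more UMIs of Gad1 and Gad2 than of Slc17a7 and Slc17a6, they hold inhibitory neurons together with glia, and their medians were 6732, 7528 and 8452 UMIs. Ebf1 was found in 50%, 98.9% and 95.5% of M1 nuclei, in 35.8%, 22.0% and 38.6% of ET2 nuclei and in at most 2.8% of M2 nuclei. Gabra2 was found in 21.4%, 98.5% and 97.5% of M1 nuclei in 28.4%, 24.6% and 14.5% of ET2 nuclei and in 26.9%, 24.3% and 27.6% of ET4 nuclei, so that in mouse 1 both types lay above M1. T1 nuclei held it in 1.2%, 5.5% and 3.8%, and nuclei outside the subclustering in 63.1%, 68.2% and 64.4%. These 3 genes marked nearly every M1 nucleus of mice 2 and 3. Nrp2 followed with 42.9%, 86.7% and 84.4%.

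Less abundant markers were found in a minority of M1 nuclei at this depth. Kcng1 was found in 0%, 24.5% and 23.6% of M1 nuclei, where 4 of the 14 nuclei of mouse 1 held it before thinning. It was found in 9.8%, 6.7% and 12% of M3 nuclei and in at most 0.5% of nuclei outside the subclustering. Without thinning, Kcng1 was found in 28.6%, 60% and 64.7% of M1 nuclei. Doc2b was found in 7.14%, 28.4% and 28.6%, Sertm1 in 7.14%, 21.6% and 23.6%, and C1ql1 in 0%, 20.3% and 25.1% of thinned M1 nuclei. Olfr1259 was found in 0%, 8.3% and 7.54%, and in at most 0.44% of the nuclei of every other type. At 4000 UMIs an M1 nucleus held a median of 2, 5 and 5 of the 14 list genes in mice 1, 2 and 3, and an M2 nucleus a median of 0 in each mouse. Shares over these genes rose with depth, so a nucleus without a UMI is not shown to lack the gene.

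M1 nuclei varied among themselves along Fst, the gene of follistatin, a secreted inhibitor of activins that is on the M3 list. This axis was chosen after the values were seen. At 4000 UMIs, Fst was found in 42.9%, 30.1% and 18.1% of M1 nuclei of mice 1, 2 and 3 (6 of 14 in mouse 1), in 88.2%, 78.1% and 72.0% of the M3 nuclei of mice 1, 2 and 3, in 16.7% to 23.0% of M2 nuclei and in at most 1.42% of T1 nuclei. The thinning left out 18 of 69, 69 of 174 and 33 of 83 M3 nuclei, and over all M3 nuclei, unthinned, Fst was found in 72.5%, 52.9% and 49.4%. Unthinned shares were 50%, 40% and 23.7% in M1 and 30.4%, 40.0% and 44.4% in M2. In mouse 2, 279 M1 nuclei had 0 Fst UMIs, 53 had 1 or 2 and 133 had 3 or more, and in mouse 3 these were 158, 12 and 37. The classes are ranges of a continuous count and not types, and the 53 and 12 nuclei lie between them. Nuclei with 3 or more Fst UMIs were shallower, with medians of 11582 and 15946 UMIs against 19199 and 26174 UMIs in those with 0, and the part of depth in what follows was not tested. The inhibitory marker sum was 902 and 432 CPM in the upper class and 776 and 377 in the lower.

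In mice 2 and 3, both classes carried M1 markers. The M1 list took 9410 and 9134 CPM in nuclei without Fst and 6611 and 7514 in those with 3 or more. Ebf1 stood at 2424 and 2483 CPM without and 2066 and 2078 CPM with Fst, and Kcng1 at 74.3 and 81.3 CPM without and 74.2 and 89.9 CPM with Fst. Kcng1 was found at 4000 UMIs in 26.8% and 30.6% of the M1 nuclei that had an Fst UMI and in 23.4% and 22.1% of the others. Cntn6 was somewhat lower with Fst, at 2192 and 2837 CPM against 3896 and 3384 CPM.

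A set of genes moved with Fst in the same direction in mice 2 and 3. Of 6929 genes with at least 20 CPM in a class, 191 (2.76%) were higher and 62 (0.895%) lower by more than 1 on the log2 scale in both mice. Cadps2, a priming factor of dense-core vesicles on the M3 list, had the largest ratio among these, going from 12.5 and 12 CPM to 378 and 377 CPM. M3 had 519, 469 and 493 CPM. Cbln1, a secreted synapse organizer, went from 3.52 and 4.65 to 63.8 and 59.5 CPM, and Plekha7, an adherens junction protein gene, from 5.46 and 3.43 to 73.6 and 81.2 CPM. Dpp10, an auxiliary subunit of A-type potassium channels, went from 255 and 166 to 1643 and 1671 CPM, between the 1270 to 1358 CPM of M2 and the 1987 to 2139 CPM of M3. The peptide gene Cck went from 120 and 72.5 to 367 and 335 CPM, and the imprinted gene Nnat from 51.8 and 26.7 to 324 and 254 CPM.

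Lower in nuclei with Fst were Alk, a receptor tyrosine kinase gene (124 and 190 CPM to 24.7 and 21.8 CPM) and Vav3, a guanine nucleotide exchange factor gene (279 and 365 to 70.1 and 39.2 CPM). The semaphorin gene Sema3a was at 596 and 833 CPM without Fst and 233 and 257 CPM with it, and the netrin receptor gene Dcc at 814 and 900 against 250 and 354 CPM. The ephrin gene Efnb3 went the other way, from 11.8 and 6.36 to 39.1 and 46.4 CPM. Cpa6 and Thrb, both higher in M1 than in all other types, were carried mainly by nuclei without Fst, with Cpa6 at 2233 and 2145 against 844 and 759 CPM and Thrb at 214 and 286 against 82.2 and 65.3 CPM. Of the M1 list, 13 genes were compared, 2 were higher (C1ql1, from 40.9 and 50.7 to 115 and 110 CPM, and Baiap3, from 7.22 and 4.65 to 31.1 and 34.8 CPM) and 0 lower.

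The genes that moved with Fst in M1 were set beside the difference between M3 and M2. Of the 191 higher genes, 178 (93.2%) had a higher mean in M3 than in M2, and 63.1% of all compared genes did. Of the 62 lower genes, 56 (90.3%) had a lower mean in M3 than in M2, which was the less common direction among all compared genes. M3 nuclei were shallower than M2 nuclei, with medians of 4402 to 6866 against 19594 to 23455 UMIs. M1 nuclei with Fst were likewise shallower than those without, and the part of depth in this likeness was not tested. Not all of M3 was present, since the M3-list gene Ets1 stayed at 0.57 and 1.45 CPM in M1 nuclei with Fst, against 11.3 to 31.8 CPM in M3. Conversely Cacng3, an AMPA receptor auxiliary subunit gene, went from 50 and 27.7 to 205 and 177 CPM with Fst and was at 5.45 to 18.5 CPM in M3, and Iqgap2, a scaffold protein gene, went from 12.1 and 6.85 to 77.6 and 88.5 CPM and was at 8.06 to 14.5 CPM in M3. The sum of the M3 list without Fst and Cadps2 was 56.9 and 75.4 CPM in M1 nuclei with Fst and 3.17 and 2.94 in those without.

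Within nuclei at 4000 UMIs, Cadps2 was found in 47.1% and 47.2% of the M1 nuclei of mice 2 and 3 that had an Fst UMI and in 6.88% and 5.52% of the others. The correlation of Fst and Cadps2 across M1 nuclei of mice 1, 2 and 3 was 0.49 (14 nuclei), 0.57 (458 nuclei) and 0.56 (199 nuclei), against 0.11, 0.15 and 0.02 across M2 nuclei and 0.07, 0.42 and 0.50 across M3 nuclei of mice 1, 2 and 3. In a separate random thinning the value in M1 was 0.51 and 0.66 in mice 2 and 3. In that draw, ranked by the weaker of the values in mice 2 and 3 among genes with a mean of at least 0.05 UMIs, Fst went most closely with Dpp10 (0.61 and 0.61), and most oppositely with Grm7, a metabotropic glutamate receptor gene (-0.49 and -0.45), and Galntl6 (-0.45 and -0.47). In single mice other genes came first, such as Cadps2 in mouse 3 and Cpa6 (-0.54) in mouse 2. Nuclei of a mouse share a library, and these correlations describe the nuclei and carry no p-value. In mouse 1, 6 of 14 M1 nuclei had 3 or more Fst UMIs, and the M1 list took 519 CPM in them and 2829 CPM in the 7 nuclei with 0. Without thinning, Kcng1 was found in 4, 279 and 134 and Cadps2 in 8, 145 and 67 M1 nuclei of mice 1, 2 and 3, and both in 2, 80 and 41. These joint counts are not read as co-expression, since no level beyond the separate shares was tested.

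**Figure D5:**
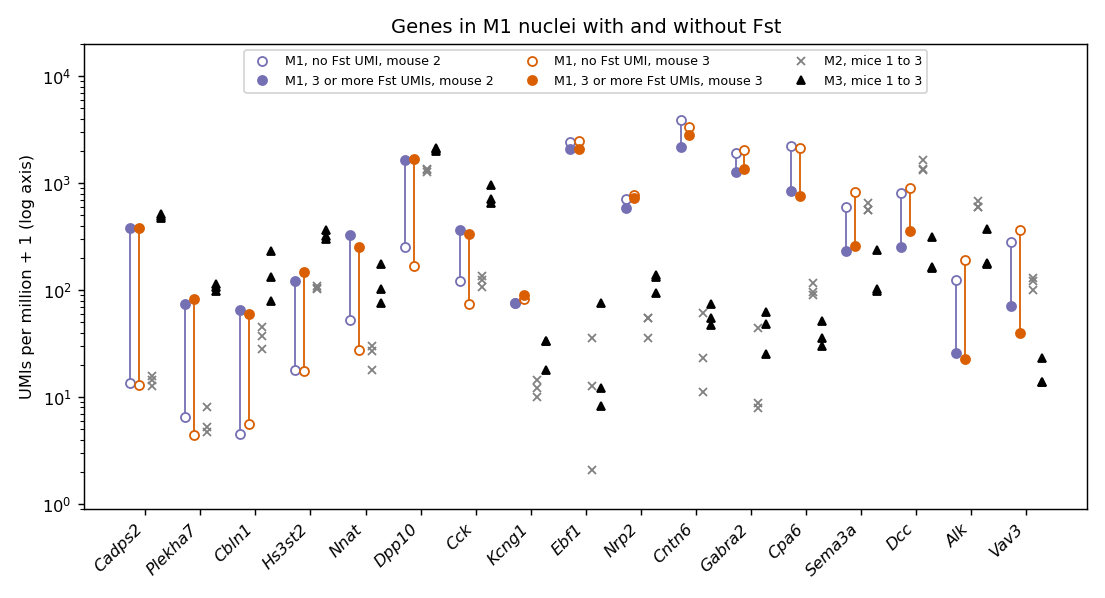
Level of selected genes on a log axis (CPM plus 1) in M1 nuclei of mice 2 and 3 with 0 Fst UMIs (open circles) and with 3 or more (filled circles), beside the M2 (crosses) and M3 (triangles) libraries of mice 1 to 3. Cadps2 goes from 12.5 and 12 to 378 and 377 CPM, against 469 to 519 CPM in M3, whereas Kcng1 and Ebf1 stay at like levels and far above M2.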

How the data were processed

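For each mouse the deposited matrix gives UMI counts, not normalised, that the authors obtained from Cell Ranger; its headers name version 3.0.2, and the submitters' processing notes name builds mm10 and GRCm38. Whether intron reads were counted is not given in the sources used here. A deposited table of the 31703 retained nuclei gives mouse, cluster, subcluster and UMI and gene numbers, and the percent of mitochondrial UMIs that the authors computed per nucleus. The authors filtered, merged and clustered the nuclei in Seurat. UMI and gene numbers recomputed from the counts equalled those listed for all 5845, 21105 and 4753 nuclei. No doublet caller was run here. The sort gated on single nuclei, which does not remove nuclei that share a droplet, and such doublets were not examined.

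Counts were summed over nuclei into 21 libraries (3 mice by 7 subclusters) and fitted with edgeR 4.0.16 in R 4.3.3 (quasi-likelihood, TMM, filterByExpr), which gave log2 fold changes and standard errors. No p-value is given, since the subclusters were formed on the same counts. The fit was tested on simulated data. Genes were named by rule: the 15 largest and 10 smallest called log2 fold changes, the 3 largest and 3 smallest against M2, M3 and ET2, the whole M1 list, and called members plus up to 4 others of each further list. Genes of the comparison by Fst and the printed promoters were chosen after their values were seen. Some genes that the rule names are not reported here. The members and lists were chosen with earlier results of these data known.

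Nuclei were thinned to 4000 UMIs for shares of nuclei, and intervals and floors (3 counts) cover counting error only. Nuclei by Fst were compared on summed counts, as log2 ratios with 5 CPM added, in mice 2 and 3. The 21 libraries are paired by animal. Deviations from the subcluster means correlated at a mean of 0.13 within a mouse (63 pairs, 39 above 0.1) and -0.06 between mice (126 pairs, 0 above 0.1). Alternatives were RLE size factors, DESeq2 1.42.0, no filter on low counts, a threshold of 2, the mouse as a block, each mouse left out, separation within each mouse, the sum of the other subclusters, other thinning depths and, added later, nuclei without a Gad1 or Gad2 UMI.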

Additional observations from a re-analysis of the deposited data

How the results depend on the processing

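In M1 of mouse 1, a level under 18.6 CPM cannot be told from 0 at its depth. Leaving out each mouse in turn gave 231 to 589 higher and 128 to 222 lower genes against the mean of the 6 other types, 766 to 1464 higher against M2, 950 to 1964 higher against M3 and 968 to 1749 higher against ET2, each time with the most higher genes without mouse 1. With a threshold of 2 on the log2 scale, 99 genes were higher and 27 lower against the 6 types, 242 and 268 against M2, 251 and 175 against M3, and 349 and 370 against ET2. Against the sum of the 6 types, where 3 libraries and not 18 are cleared, 587 were higher and 1170 lower. With separation required only within each mouse, 117 were lower. Without a filter on low counts 1427 genes were lower than in M2, and in nuclei without a Gad1 or Gad2 UMI 436 were higher than in M3; the cause was not tested. With the mouse as a block, which respects the pairing of libraries by animal, the counts were 160 and 71 against the 6 types, 678 and 790 against M2, 643 and 874 against M3 and 850 and 878 against ET2, and the block changed no call of a named gene. The share of M1 nuclei with a UMI, as the median over Kcng1, Sertm1, Doc2b, Cntn6 and Ebf1 and then the mean over mice, was 21.4%, and it was 13.9% at 2000 UMIs, 46.8% at 8000 UMIs and 55.8% unthinned, and the mean number of M1-list genes per nucleus went from 4.24 to 6.32 unthinned. DESeq2 and RLE size factors left each count within 1.5 times its value. Of the named called genes, 3 moved toward 0 by more than 1.5-fold with DESeq2, namely Olfr1259 (7.37), Tslp (6.22) and Zp3r (3.94). Of the named genes' fold changes under the alternatives, 658 kept a call, 34 lost it, 38 remained without one, 4 gained one and 0 of the called ones changed sign.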
